A study of Mus musculus with 12 samples.

Results

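Pancreas of aged mice collected in the light phase (labelled 4, 8 and 12 h) was compared with pancreas of aged mice collected in the dark phase (16, 20 and 24 h). The 6 libraries were all those labelled Old among the 12 of the series, 3 in each phase, and were chosen by labelled age and zeitgeber time, the hours since lights on, with no measured value used. Old mice were male C57BL/6J, an inbred strain, killed at 25 months. The Young mice, of the same strain and sex, were killed at 5 months, and 5 of their libraries serve here as a comparison. No transgene, deletion or drug is labelled. All mice were kept alone for 4 weeks under 12 h of light and 12 h of dark a day, with chow always in reach. Tissue was taken in darkness at every time, so the phases are those of the housing cycle, and 12 h and 24 h lie on the borders between them. Whether a library is 1 mouse or several is not labelled. No time was repeated, so p-values measure the spread between the 3 times of a phase, which holds differences between hours as well as between samples.

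The pancreas is built mostly of acinar cells, which make and export digestive enzymes and depend on the folding machinery of the endoplasmic reticulum (ER). Its cells also carry a circadian clock, in which BMAL1 and CLOCK switch on the period, cryptochrome and REV-ERB genes, whose products repress BMAL1 and CLOCK or their genes in turn. When unfolded protein collects in the ER, sensors in its membrane raise the transcription of ER chaperones, in part through the ER stress response element of their promoters.

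The 6 Old libraries held 1168694 to 1404038 counts, so 1 count was worth 0.712 to 0.856 CPM (counts scaled to a common library total). Levels below are CPM of the whole library unless stated otherwise. Digestive enzyme genes, the defining transcripts of acinar cells, took 46.4%, 45.6% and 43.3% of counts in the light libraries (4, 8, 12 h) and 44.6%, 40.2% and 33.4% in the dark libraries (16, 20, 24 h). The library labelled Young 4 h was left out because transcripts of neurons and glia summed to 3020 CPM there, against 16.8 to 39.2 CPM in the other 11 libraries.

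With all 6 libraries, no gene passed. Of 6054 genes tested, 0 (0%) had an adjusted p under 0.05 in edgeR's quasi-likelihood fit (Benjamini-Hochberg), and the smallest adjusted p was 0.144. At an unadjusted p under 0.05 there were 527 genes (8.7%), of which 246 (4.06%) were higher and 281 (4.64%) lower in light. DESeq2 called 7 genes and limma-voom called 0. In 871 genes (14.4%) the 3 light and 3 dark libraries did not overlap, 432 (7.14%) higher and 439 (7.25%) lower in light. Among the 432, the highest library was Old 4 h for 153, Old 8 h for 138 and Old 12 h for 141, so none of the light times dominated. Among the 439 it was Old 16 h for 138, Old 20 h for 172 and Old 24 h for 129.

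The library labelled Old 24 h decided much of this outcome. Without it, 43 of 6492 genes (0.662%) passed, 18 (0.277%) higher and 25 (0.385%) lower in light. The common biological coefficient of variation, edgeR's measure of spread between libraries of a group, was 0.166 without Old 24 h and 0.197 with it. Leaving out Old 16 h gave 11 calls, and leaving out Old 4, 8, 12 or 20 h gave 0. Of the 43 genes, 33 already had an unadjusted p under 0.05 with all 6 libraries. In 19 of the 43 the level in Old 24 h lay in the gap between the light libraries and the 16 and 20 h libraries, in 12 it lay within the range of the light libraries, and in 11 it lay beyond the light libraries on the side away from 16 and 20 h. In 1 it lay within the range of 16 and 20 h. The genes that turn on it are therefore given with and without Old 24 h.

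**Figure D1:**
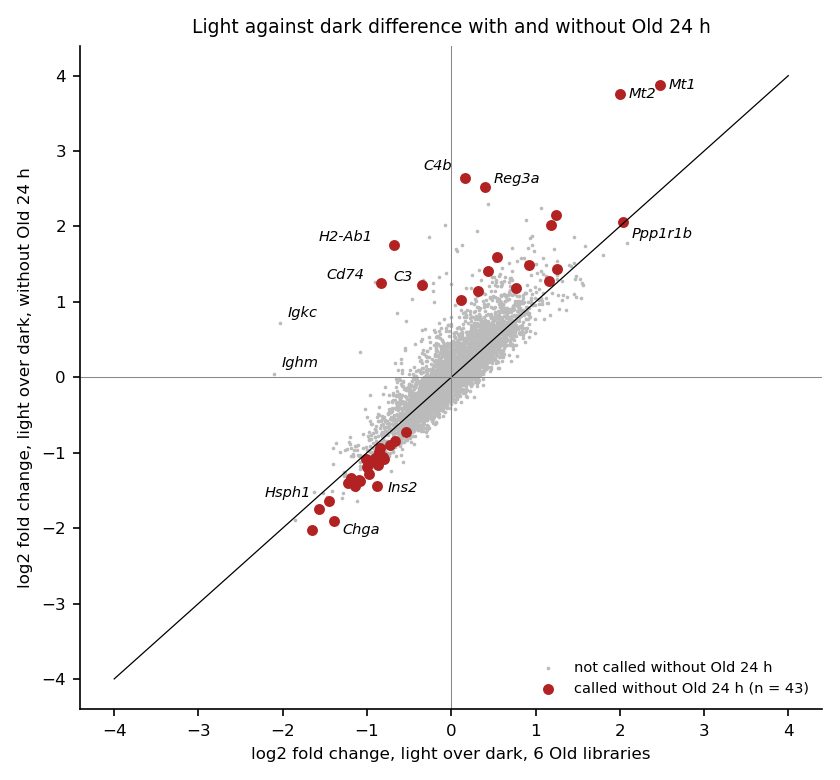
Log2 fold change of light over dark in Old for each gene tested in both fits, with all 6 libraries on the x axis and without Old 24 h on the y axis; the diagonal marks equal values. The 43 genes called without Old 24 h are in red: those lower in light and the metallothioneins keep their sign in both fits, whereas H2-Ab1, Cd74 and C3 lie on opposite sides of 0.

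ER chaperones were mostly at a lower level in light. Of 22 genes listed, 19 were tested and 17 had a negative log2 fold change, with a median of -0.38 against -0.01 over all genes tested. An unadjusted p under 0.05 was reached by 8 of the 19, all lower in light, where 4.64% of all genes were. Leaving out any of Old 4, 8, 12, 16 or 20 h left 7 or 8 such members. Without Old 24 h, 7 of 19 were called lower in light, 0 higher, and the median was -0.58. At an unadjusted p under 0.05 it was 12 of 19, all lower in light, where 5.55% of all genes were lower and 5.64% higher. The 7 called were Hsp90b1, Hspa5, Calr, Pdia4, Creld2, Hyou1 and Dnajc3.

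Hsp90b1, which encodes the ER HSP90 paralog GRP94, stood at 525, 516 and 578 CPM in the light libraries (4, 8, 12 h) and at 1300, 1359 and 674 CPM in the dark libraries (16, 20, 24 h). Hspa5, which encodes the ER HSP70 protein BiP, stood at 316, 445 and 527 CPM in light and at 1022, 960 and 478 CPM in dark. In both genes the 16 and 20 h libraries were high and alike, and Old 24 h was nearer to the light libraries. The log2 fold change of Hsp90b1 was -1.09 ± 0.24 (SE) with an adjusted p of 0.216, and -1.37 ± 0.17 with an adjusted p of 7.9e-06 without Old 24 h. For Hspa5 it was -0.98 ± 0.27 with an adjusted p of 0.263, and -1.28 ± 0.19 with an adjusted p of 0.00015 without Old 24 h. The phases did not overlap for Hsp90b1, and overlapped for Hspa5 through Old 24 h.

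Calr encodes calreticulin, a lectin chaperone that also stores calcium. Its level was 182, 189 and 227 CPM in light and 424, 438 and 300 CPM in dark, with no overlap. Pdia4, a protein disulfide isomerase gene, had 87.6, 118 and 101 CPM in light and 219, 211 and 163 CPM in dark, again with no overlap. These were among the 12 genes lower in light with the smallest p, at log2 fold changes of -0.99 ± 0.20 and -0.98 ± 0.20, each with an adjusted p of 0.144. DESeq2 with all 6 libraries called Calr, Pdia4 and Hsp90b1.

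Creld2, a small ER folding factor, stood at 39.2, 47 and 64.9 CPM in light and at 136, 124 and 63.3 CPM in dark. Hyou1, the large ER HSP70-like chaperone, had 164, 225 and 284 CPM in light and 490, 469 and 229 CPM in dark. Within the light phase both genes were lowest at 4 h and highest at 12 h. Dnajc3, a J-domain co-chaperone, had 420, 406 and 433 CPM in light and 642, 676 and 466 CPM in dark, a smaller difference of -0.54 ± 0.19 on the log2 scale. Other members of the list differed less. The log2 fold change was -0.10 ± 0.18 for Canx (calnexin, a lectin chaperone) and -0.20 ± 0.19 for Pdia6 (a protein disulfide isomerase), with adjusted p of 0.931 and 0.822.

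Most of the called chaperones share a promoter sequence, which the comparison did not use. The ER stress response element, searched as CCAAT and CCACG with 9 bases of any kind between them on both strands in RefSeq windows of 250 bases before to 50 bases after each start (GRCm38.p6), was in 39 of 32851 windows (0.119%). Of the 7 called chaperones 6 had a window, and 5 of the 6 held the element. Over all tested chaperones, called or not, 17 had a window and 7 of the 17 held the element, so it is frequent in the list itself. The windows of the 5 called genes are shown with it in capitals, because these are the members the comparison turns on.
Hspa5 (chr2:34771840-34772139, + strand): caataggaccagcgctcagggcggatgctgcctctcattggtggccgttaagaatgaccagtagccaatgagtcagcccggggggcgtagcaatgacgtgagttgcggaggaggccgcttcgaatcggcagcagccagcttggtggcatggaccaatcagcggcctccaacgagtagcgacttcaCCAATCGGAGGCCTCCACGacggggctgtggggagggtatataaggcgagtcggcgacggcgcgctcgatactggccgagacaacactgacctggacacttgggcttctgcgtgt
Hsp90b1 (chr10:86705395-86705694, - strand): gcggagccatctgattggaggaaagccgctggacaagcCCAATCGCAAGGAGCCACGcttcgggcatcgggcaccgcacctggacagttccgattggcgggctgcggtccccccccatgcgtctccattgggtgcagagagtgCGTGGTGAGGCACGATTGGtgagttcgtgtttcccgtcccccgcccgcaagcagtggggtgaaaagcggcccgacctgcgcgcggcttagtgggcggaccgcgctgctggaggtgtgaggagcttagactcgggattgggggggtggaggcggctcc
Calr (chr8:84846882-84847181, - strand): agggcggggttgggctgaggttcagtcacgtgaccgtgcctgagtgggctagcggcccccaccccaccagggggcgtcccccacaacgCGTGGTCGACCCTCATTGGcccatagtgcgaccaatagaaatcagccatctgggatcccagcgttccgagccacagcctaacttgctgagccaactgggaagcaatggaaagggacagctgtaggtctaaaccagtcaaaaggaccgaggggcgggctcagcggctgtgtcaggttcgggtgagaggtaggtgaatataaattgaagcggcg
Creld2 (chr15:88819396-88819695, + strand): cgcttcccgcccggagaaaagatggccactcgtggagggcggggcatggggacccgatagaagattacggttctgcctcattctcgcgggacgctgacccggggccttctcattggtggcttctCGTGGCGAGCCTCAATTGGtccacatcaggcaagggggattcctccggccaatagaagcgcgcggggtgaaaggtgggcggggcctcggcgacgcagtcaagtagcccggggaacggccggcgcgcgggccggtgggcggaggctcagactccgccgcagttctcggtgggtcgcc
Dnajc3 (chr14:118937682-118937981, + strand): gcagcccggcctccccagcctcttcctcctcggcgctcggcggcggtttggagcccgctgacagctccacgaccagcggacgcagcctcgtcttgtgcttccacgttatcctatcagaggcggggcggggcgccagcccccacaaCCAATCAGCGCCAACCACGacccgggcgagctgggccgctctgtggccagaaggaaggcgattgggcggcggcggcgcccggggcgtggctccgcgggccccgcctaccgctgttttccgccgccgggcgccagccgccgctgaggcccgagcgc
Hsp90b1 held 2 matches and each of the others 1. Pdia4 had a window without these letters. The element was also in the windows of Canx and Pdia6, whose levels differed little. Over all 37 genes with the element, 13 were tested and 10 had a negative log2 fold change. At an unadjusted p under 0.05, 6 of the 13 were lower in light, where 4.64% of all genes were. The 6 tested genes outside the chaperone list had a median log2 fold change of -0.03, and Syvn1, an ER ubiquitin ligase gene, was the 1 of them with an unadjusted p under 0.05 (-0.54 ± 0.22).

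The counts for neighbouring secretory steps depended on Old 24 h and on Old 16 h. At an unadjusted p under 0.05, where 4.64% of all genes were lower in light, 2 of 12 tested ERAD factors, which remove misfolded protein from the ER, were lower and 1 was higher. It was 3 of 19 lower for translocation and signal peptide processing, 1 of 28 for ER to Golgi traffic and 0 of 15 for N-glycosylation, with 0 higher in each. Without Old 24 h, where 5.55% of all genes were lower, it was 4 of 12, 7 of 19, 4 of 28 and 6 of 16 in the same order, with 0 higher in each. Without Old 16 h it was 1 of 11, 1 of 19, 0 of 29 and 0 of 16 lower, with 2, 1, 0 and 1 higher. In that fit 350 of 6466 genes were lower and 307 higher. Ssr3, a subunit of the complex beside the translocation channel, had 108, 121 and 128 CPM in light and 232, 216 and 182 CPM in dark, with no overlap. Its log2 fold change was -0.85 ± 0.19 with an adjusted p of 0.201, and -0.99 ± 0.18 with an adjusted p of 0.00301 without Old 24 h.

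The sensors and factors of the unfolded protein response did not follow the chaperones as a group. Of 10 tested, 7 had a positive log2 fold change, with a median of 0.11. Eif2ak3, the sensor kinase PERK, had 130, 94.1 and 117 CPM in light and 152, 173 and 161 CPM in dark, a difference of -0.53 ± 0.18. Bhlha15, the acinar transcription factor MIST1, had 180, 191 and 254 CPM in light and 153, 144 and 116 CPM in dark, a difference of 0.56 ± 0.20. These phases did not overlap, yet neither gene passed with or without Old 24 h (adjusted p of 0.394 and 0.409 with it). Xbp1 and Atf6, which encode transcription factors of the response, stood at 0.22 ± 0.19 and 0.03 ± 0.19.

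**Figure D2:**
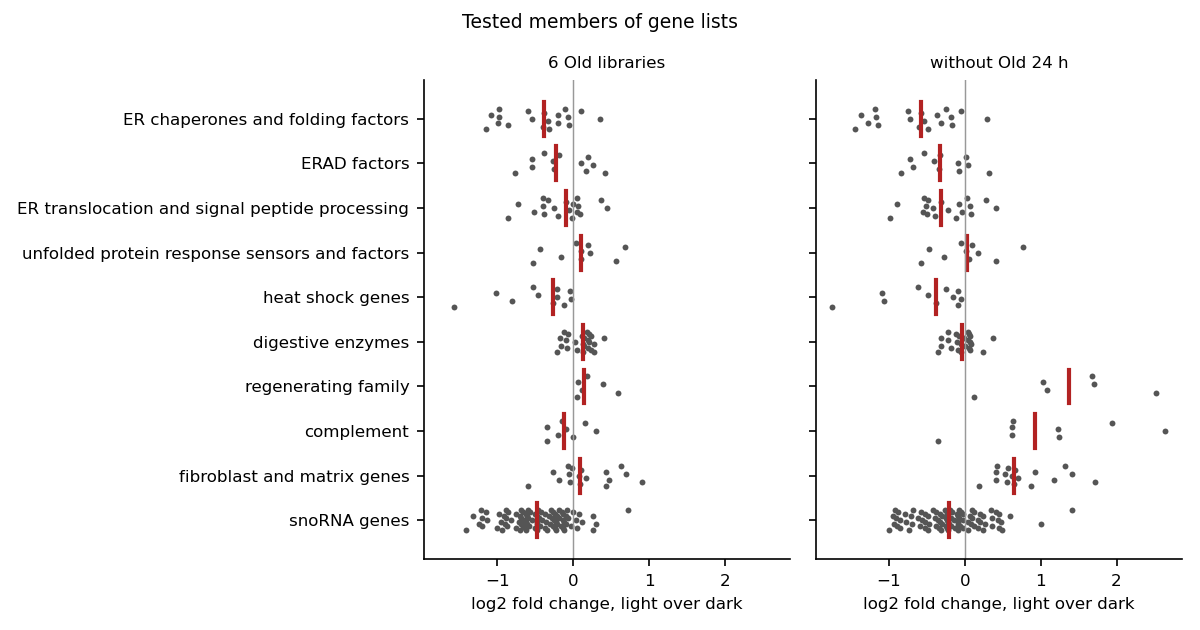
Log2 fold change of light over dark for each tested member of 10 gene lists, with all 6 Old libraries on the left and without Old 24 h on the right; points are genes and red bars list medians. ER chaperones and heat shock genes lie mostly below 0 in both panels, whereas the regenerating, complement and matrix lists lie near 0 with Old 24 h and above it without.

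The list of heat shock genes outside the ER holds cytosolic chaperones and the mitochondrial chaperonins Hspd1 and Hspe1. Of 17 listed, 11 were tested, all 11 had a negative log2 fold change and 3, all cytosolic, had an unadjusted p under 0.05, where 4.64% of all genes were lower. Without Old 4 h, 7 of 11 were negative, and the median was -0.09, against -0.27 with all libraries. Hsp90aa1, the inducible cytosolic HSP90, had 53.4, 51 and 77.3 CPM in light and 140, 104 and 116 CPM in dark, with no overlap. Hsph1, the HSP110 co-chaperone, had 2.85, 11.8 and 14.7 CPM in light and 37.6, 24 and 22.3 CPM in dark, with no overlap. Hspa8, the constitutive HSC70, had 99.7, 122 and 163 CPM in light and 361, 142 and 146 CPM in dark. Old 16 h alone was high for Hspa8, and its phases overlapped.

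Leaving out Old 24 h, the log2 fold change was -1.09 ± 0.21 for Hsp90aa1, -1.75 ± 0.39 for Hsph1 and -1.06 ± 0.25 for Hspa8, with adjusted p of 0.00517, 0.0188 and 0.0338. With all 6 libraries the adjusted p was 0.144 for Hsp90aa1, 0.22 for Hsph1 and 0.462 for Hspa8. The core of the heat shock element, GAA and TTC with 2 bases of any kind between them on both strands, was in 2582 of 32851 promoter windows (7.86%) and in 6 of 10 windows of the tested heat shock genes. These windows were of Hsph1, Chordc1, Bag3, Hspd1 and Hspe1, and not of Hsp90aa1 or Hspa8. With all 6 libraries the log2 fold change was -0.53 ± 0.41 for Chordc1, -0.04 ± 0.33 for Bag3, -0.21 ± 0.24 for Hspd1 and -0.27 ± 0.46 for Hspe1. Among the genes with the core, Hsph1 alone had an unadjusted p under 0.05. The Hsph1 window is shown with it in capitals.
Hsph1 (chr5:149636287-149636586, - strand): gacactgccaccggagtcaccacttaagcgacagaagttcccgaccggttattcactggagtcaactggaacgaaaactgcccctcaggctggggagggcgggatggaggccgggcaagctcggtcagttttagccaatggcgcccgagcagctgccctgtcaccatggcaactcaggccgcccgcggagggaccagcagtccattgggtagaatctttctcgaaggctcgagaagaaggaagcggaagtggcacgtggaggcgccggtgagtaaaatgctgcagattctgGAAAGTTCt

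Psat1, an enzyme of serine synthesis, had 33.5, 24.3 and 20.1 CPM in light and 70.8, 56.7 and 35.1 CPM in dark. Its log2 fold change was -1.10 ± 0.29, and -1.36 ± 0.25 with an adjusted p of 0.00301 without Old 24 h. It was the 1 called member of 15 tested ATF4 targets in amino acid supply, where 0.385% of all genes were called lower. Wars, the tryptophan-tRNA synthetase gene, ran the other way, with 213, 162 and 94.3 CPM in light and 67.8, 63.1 and 146 CPM in dark. It was called without Old 24 h at 1.18 ± 0.24, where 0.277% of all genes were called higher. It was the 1 called member of 19 tested aminoacyl-tRNA synthetases. With all 6 libraries, 12 of the 19 had a negative log2 fold change. At an unadjusted p under 0.05, 3 of the 19 were lower in light and 1, Wars, was higher, where 4.64% and 4.06% of all genes were.

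Metallothioneins are small proteins that bind zinc and copper, and Mt1 had the largest log2 fold change of all genes tested. Mt1 stood at 489, 177 and 208 CPM in the light libraries (4, 8, 12 h) and at 19.2, 18.4 and 123 CPM in the dark libraries (16, 20, 24 h). Mt2 stood at 72.7, 16.5 and 27.8 CPM in light and at 1.47, 3.99 and 24.8 CPM in dark. Both genes were highest at 4 h, lowest at 16 and 20 h, and intermediate in Old 24 h, and the phases overlapped for Mt2. The log2 fold change of Mt1 was 2.48 ± 0.50 with an adjusted p of 0.144, and 3.87 ± 0.34 with an adjusted p of 9.5e-09 without Old 24 h. That of Mt2 was 2.00 ± 0.59 with an adjusted p of 0.308, and 3.75 ± 0.58 with an adjusted p of 0.000339 without Old 24 h. Mt3 had 1 count in all 6 libraries and was not tested.

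The metal response element, searched as TGCGCNC and TGCACNC on both strands, is short and was in 8444 of 32851 windows (25.7%). The Mt1 window held 3 matches, shown in capitals, and that of Mt2 held 4.
Mt1 (chr8:94178839-94179138, + strand): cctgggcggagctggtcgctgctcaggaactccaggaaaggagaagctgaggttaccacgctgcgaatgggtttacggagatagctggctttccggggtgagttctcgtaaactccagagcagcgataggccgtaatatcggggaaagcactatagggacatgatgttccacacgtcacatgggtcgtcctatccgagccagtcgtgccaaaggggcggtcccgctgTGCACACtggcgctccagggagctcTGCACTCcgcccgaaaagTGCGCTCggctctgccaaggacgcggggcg

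Slc30a2, which encodes the zinc transporter ZnT2 of secretory vesicles, had 16.4, 14.1 and 11.6 CPM in light and 1.47, 6.39 and 1.71 CPM in dark. The log2 fold change of Slc30a2 was 2.08 ± 0.51, and 1.78 ± 0.53 without Old 24 h, and it passed in neither. Among glucocorticoid responsive genes, a class to which Mt1 and Mt2 are often counted, 5 of 6 tested members had a positive log2 fold change. At an unadjusted p under 0.05, 2 of the 6 were higher in light and 0 lower, where 4.06% of all genes were higher. They were Zbtb16 and Per1, and Per1 is also counted among the clock genes. Zbtb16, which encodes the transcription factor PLZF, had 12.8, 15.7 and 43.3 CPM in light and 5.16, 9.58 and 5.13 CPM in dark, with no overlap. Fkbp5, which binds the glucocorticoid receptor, had 15, 5.49 and 46.4 CPM in light and 14, 10.4 and 5.13 CPM in dark. The 12 h library was the highest for both, and neither gene passed with or without Old 24 h.

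**Figure D3:**
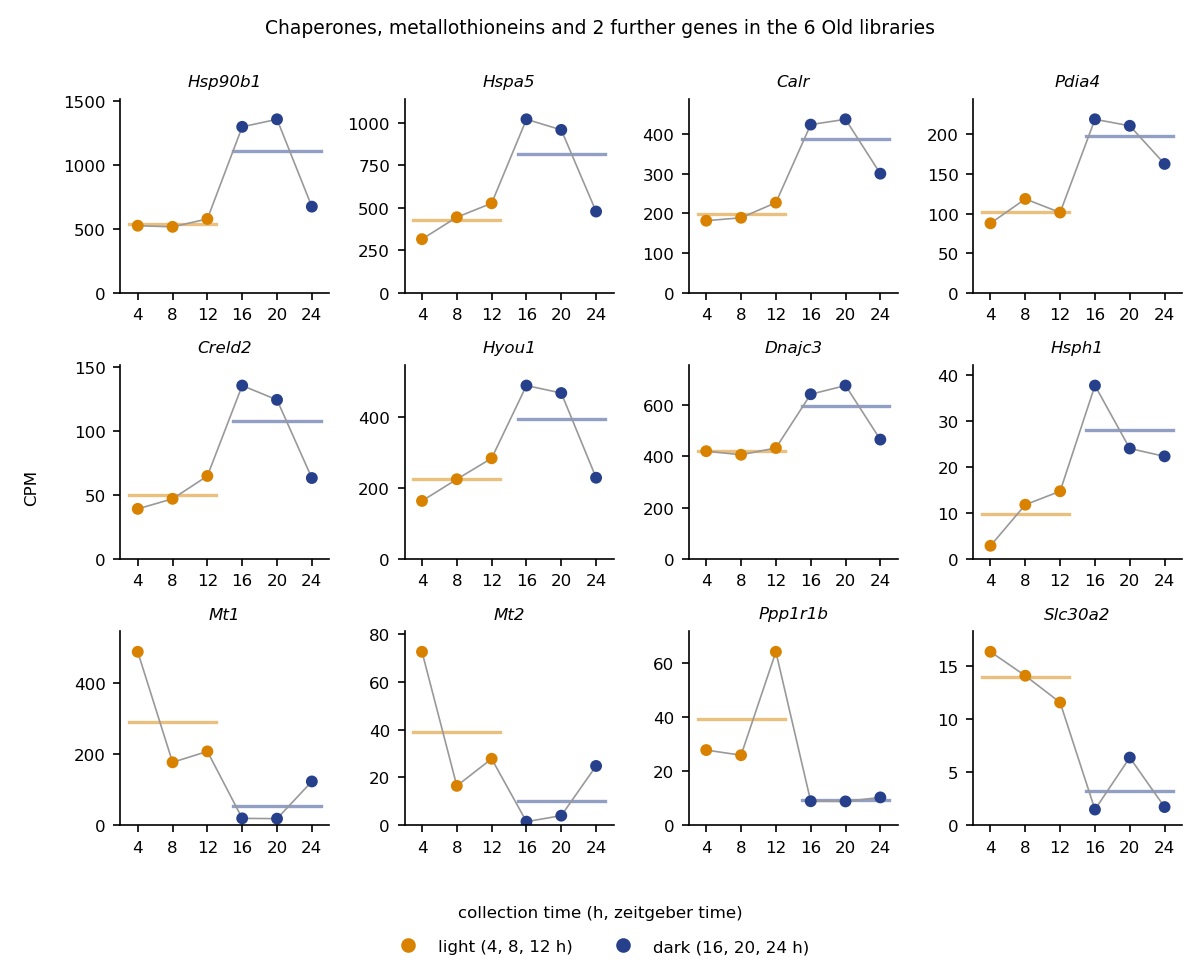
Level in CPM against collection time for 12 genes in the 6 Old libraries, light in orange and dark in blue; each point is 1 library and horizontal bars are phase means. The 7 ER chaperones and Hsph1 are high at 16 and 20 h, with Old 24 h below both of them for each ER chaperone, and Mt1 and Mt2 are low at 16 and 20 h.

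Other genes with the smallest p did not fall into the lists above. Ppp1r1b, which encodes DARPP-32, a phosphatase inhibitor known from dopamine signalling, had the smallest p of all. It stood at 27.8, 25.9 and 64.1 CPM in light and at 8.85, 8.78 and 10.3 CPM in dark, with no overlap. Its log2 fold change was 2.04 ± 0.36 with an adjusted p of 0.144, and 2.06 ± 0.39 with an adjusted p of 0.00464 without Old 24 h. It was also called without Old 16 h, by DESeq2, and in a fit that took the spread from 11 libraries (adjusted p of 0.0337). Of the genes called without Old 24 h and those called without Old 16 h, it was the 1 shared. In the 5 Young libraries, which lack 4 h, its log2 fold change was 0.72.

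Itgb4, the integrin beta chain of hemidesmosomes, had 54.1, 46.3 and 50.2 CPM in light and 15.5, 24 and 27.4 CPM in dark. Ctdsp2, a small phosphatase of RNA polymerase II, had 29.9, 25.1 and 30.1 CPM in light and 10.3, 9.58 and 15.4 CPM in dark. Neither overlapped between phases, and both passed without Old 24 h (adjusted p of 0.0112 and 0.0299). Tead2, a transcription factor of the Hippo pathway, had 105, 87.8 and 91.2 CPM in light and 50.9, 61.5 and 51.3 CPM in dark. Prodh and Bckdha, enzymes of proline and branched-chain amino acid breakdown, had log2 fold changes of 1.27 ± 0.32 and 0.92 ± 0.23. Nfix (a nuclear factor I gene), Atp13a2 (a lysosomal pump), Prpsap1 (a partner of phosphoribosyl pyrophosphate synthetase) and Fam210b stood at 0.91, 0.81, 0.90 and 1.45. None of these 7 genes, Tead2 to Fam210b, passed with or without Old 24 h.

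In the other direction, Psmd1, a subunit of the proteasome's regulatory particle, had 22.1, 22 and 17.8 CPM in light and 39.1, 42.3 and 40.2 CPM in dark. Xpo1, the main exporter of proteins from the nucleus, had 7.84, 11.8 and 6.18 CPM in light and 25.1, 26.3 and 18 CPM in dark. For Psmd1 the dark libraries were nearly equal, Old 24 h included, with an adjusted p of 0.216, or 0.0512 without Old 24 h. Xpo1 passed without Old 24 h at -1.64 ± 0.35 (adjusted p of 0.0139). Cetn2 (centrin, a centriole protein), Map1b (a microtubule-associated protein) and Sema3c (a secreted semaphorin) stood at -1.85 ± 0.44, -1.04 ± 0.25 and -1.09 ± 0.27. These 3 did not overlap between phases and passed in neither fit. Snora21, a guide RNA for pseudouridylation, had 162, 188 and 223 CPM in light and 234, 390 and 481 CPM in dark. Rny3, a Y RNA, had 160, 228 and 202 CPM in light and 260, 365 and 414 CPM in dark. Both were highest in Old 24 h, and both passed without Old 16 h.

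Among clock genes, the 4 h library was unlike the 8 and 12 h libraries in several, which widened the spread within light. Of 12 tested clock genes, 6 had an unadjusted p under 0.05 besides Clock, where 8.7% of all genes did, and 0 passed with all 6 libraries. Clock itself, the partner of BMAL1, was the 1 clock gene without overlap, at 39.2, 27.5 and 23.9 CPM in light and 51.6, 59.1 and 59.9 CPM in dark. Its log2 fold change was -0.93 ± 0.23 with an adjusted p of 0.216, and -0.94 ± 0.24 with an adjusted p of 0.0671 without Old 24 h. Arntl, which encodes BMAL1, had 24.9, 0.784 and 0 CPM in light and 2.95, 28.7 and 38.5 CPM in dark, so its low and high times lay in both phases. For Arntl the log2 fold change was -1.37 ± 0.80, with an adjusted p of 0.676.

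Among the repressors, Per1 had 10.7, 45.5 and 60.3 CPM in light and 22.1, 12.8 and 2.57 CPM in dark. Per3 had 2.14, 35.3 and 23.9 CPM in light and 12.5, 5.59 and 4.28 CPM in dark. In both genes the 8 and 12 h libraries were high and the 4 h library was within or below the dark range, and the log2 fold changes of 1.54 ± 0.54 and 1.37 ± 0.62 did not pass. Cry1 lay the other way, with 4.27, 7.06 and 19.3 CPM in light and 23.6, 24.8 and 10.3 CPM in dark (-0.99 ± 0.46). Per2 and Cry2 peaked near the border, with 12 h the highest library at 34.8 and 17.8 CPM, and their log2 fold changes were 0.30 ± 0.53 and 0.14 ± 0.40.

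Nr1d2, which encodes REV-ERB beta, had 17.1, 42.3 and 48.7 CPM in light and 19.2, 7.98 and 8.56 CPM in dark. Its log2 fold change was 1.53 ± 0.40 with an adjusted p of 0.22, and it passed without Old 16 h at 2.12 ± 0.42. Rora, the gene for ROR alpha, an activator that competes with REV-ERB, was level at -0.03 ± 0.24. Tef, a PAR bZIP factor of the clock output, had 14.2, 62 and 84.2 CPM in light and 28, 20 and 6.84 CPM in dark (1.48 ± 0.49, adjusted p of 0.386). Bhlhe40, the DEC1 repressor gene, stood at 0.15 ± 0.49.

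Nr1d1 (REV-ERB alpha) and Dbp (a PAR bZIP factor) had too few counts to be tested. Nr1d1 had 7.12, 24.3 and 6.95 CPM in light and 0, 0.798 and 0.856 CPM in dark, and Dbp had 1.42, 20.4 and 20.1 CPM in light and 3.69, 0 and 0 CPM in dark. A fit without the filter on low counts called both higher in light. Its errors were smaller, with an SE of 0.23 for Mt1 against 0.50 with the filter. It also called Ighm and Igkc, immunoglobulin genes whose difference rested on Old 24 h. A call in that fit therefore does not show a difference shared by the libraries of a phase. The E-box CACGTG, the site of BMAL1 and CLOCK, was in 2349 of 32851 promoter windows (7.15%) and in 4 of 14 windows of the tested clock genes, those of Per1, Cry1 and Tef. It reads the same on both strands. The windows of Per1 and Tef are shown with it in capitals.
Per1 (chr11:69098699-69098998, + strand): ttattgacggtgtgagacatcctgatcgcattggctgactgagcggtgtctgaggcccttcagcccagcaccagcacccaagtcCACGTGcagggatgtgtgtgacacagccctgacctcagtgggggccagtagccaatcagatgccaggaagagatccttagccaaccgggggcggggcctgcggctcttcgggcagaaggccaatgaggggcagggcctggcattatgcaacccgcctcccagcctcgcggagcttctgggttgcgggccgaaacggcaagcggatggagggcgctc
Tef (chr15:81811164-81811463, + strand): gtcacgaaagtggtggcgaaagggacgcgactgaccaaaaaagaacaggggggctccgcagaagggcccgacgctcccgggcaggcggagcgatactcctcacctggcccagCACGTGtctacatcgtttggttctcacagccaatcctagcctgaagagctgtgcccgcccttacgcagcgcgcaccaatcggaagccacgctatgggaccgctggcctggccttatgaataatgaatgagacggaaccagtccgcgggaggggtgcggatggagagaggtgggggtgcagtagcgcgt

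**Figure D4:**
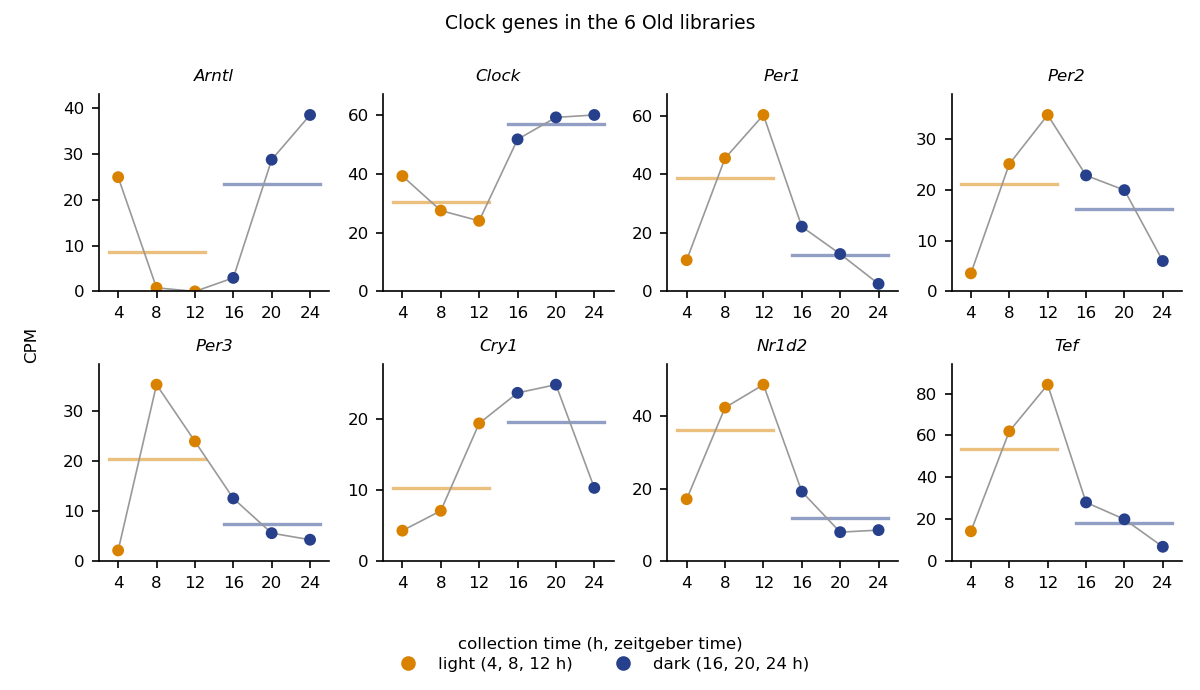
Level in CPM against collection time for 8 clock genes in the 6 Old libraries, light in orange and dark in blue; each point is 1 library and horizontal bars are phase means. The 4 h library lies near or within the dark range for Arntl, Per1, Per2, Per3, Nr1d2 and Tef, and Clock is the gene shown whose phases do not overlap.

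Islet hormone genes were high in Old 16 h alone. In bulk tissue, fewer islet cells and less RNA per cell cannot be told apart. Ins2 (an insulin gene) had 81.9, 136 and 99.7 CPM in light and 434, 105 and 14.5 CPM in dark, so the dark libraries held both the highest and the lowest value. Chga, which encodes chromogranin A of endocrine granules, had 12.1, 22.7 and 19.3 CPM in light and 98.1, 28.7 and 6.84 CPM in dark. Without Old 24 h both were called lower in light, at -1.44 ± 0.31 and -1.91 ± 0.34 (adjusted p of 0.0139 and 0.00301). Without Old 16 h the log2 fold change of Ins2 was 0.80, of Ins1 0.83, of Gcg (glucagon) 0.73 and of Iapp (amylin) 0.19, where with all 6 libraries they were -0.88, -0.71, -0.28 and -1.11. The summed level of the beta cell list was 113 to 202 CPM in light and 620, 162 and 29.1 CPM in dark. The number of islets sampled was not tested.

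Old 24 h stood apart in immune transcripts, and several genes had the opposite direction without it. B cell and plasma cell genes summed to 93.3, 17.3 and 30.9 CPM in light and to 32.5, 51.9 and 613 CPM in dark, and MHC class II genes to 118, 83.9 and 78.8 CPM in light and 25.1, 66.3 and 411 CPM in dark. T cell and NK genes summed to 5.41 to 12.1 CPM in light and 4.42, 4.79 and 72.7 CPM in dark. Old 24 h was the highest and Old 16 h the lowest library for MHC class II, complement, macrophage and matrix lists. Erythrocyte genes summed to 7.06 to 10.7 CPM in light and to 12.5, 3.99 and 92.4 CPM in dark, and genes of the spleen to 3.14 to 29.4 CPM in light and 6.64, 3.99 and 20.5 CPM in dark. The part of these cells in the results was not tested.

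Ighm and Igkc, the constant regions of immunoglobulin M and of the kappa light chain, had 41.3, 4.71 and 13.1 CPM and 34.2, 5.49 and 11.6 CPM in light. In dark they had 16.2, 20.8 and 233 CPM and 7.37, 12.8 and 204 CPM. Their log2 fold changes were -2.11 ± 0.74 and -2.04 ± 0.81 with all 6 libraries, and 0.05 ± 0.45 and 0.72 ± 0.49 without Old 24 h. The difference therefore rested on Old 24 h. H2-Ab1 and Cd74, which serve MHC class II presentation, stood at -0.68 ± 0.65 and -0.83 ± 0.60 with it and at 1.75 ± 0.38 and 1.25 ± 0.30 without it. C3, the central complement component, had 267, 218 and 208 CPM in light and 47.2, 143 and 719 CPM in dark, and its log2 fold change was -0.35 ± 0.53 with Old 24 h and 1.23 ± 0.26 without it. The last 3 passed without Old 24 h (adjusted p of 0.018, 0.0395 and 0.0112), in a contrast whose dark group is then Old 16 h and Old 20 h alone.

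Matrix and regenerating genes also depended on Old 24 h. Those named here had a positive log2 fold change in both fits, and it was larger without Old 24 h. Fn1 (fibronectin) had 62, 59.6 and 65.7 CPM in light and 11.8, 33.5 and 96.7 CPM in dark, with a log2 fold change of 0.43 ± 0.40, or 1.41 ± 0.29 without Old 24 h. All 18 tested matrix genes were positive without Old 24 h, at a median of 0.66, against 10 of 17 and a median of 0.09 with it. Apoe, the apolipoprotein E gene, was 0.32 ± 0.36 and then 1.15 ± 0.23. Reg3a, of a family induced by injury and inflammation of the pancreas, had 123, 76.1 and 29.4 CPM in light and 24.3, 0 and 156 CPM in dark. Reg3d had 241, 141 and 125 CPM in light and 91.5, 65.5 and 320 CPM in dark. Both passed without Old 24 h, at 2.53 ± 0.52 and 1.03 ± 0.24, and the median of the 6 tested members was 1.38, against 0.14 with it. C4b, of the complement, passed likewise at 2.64 ± 0.55, and H1f2, a linker histone gene, also passed. For these genes Old 24 h was above every light library, whereas for the ER chaperones it lay between the light libraries and 16 and 20 h or within the light range.

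**Figure D5:**
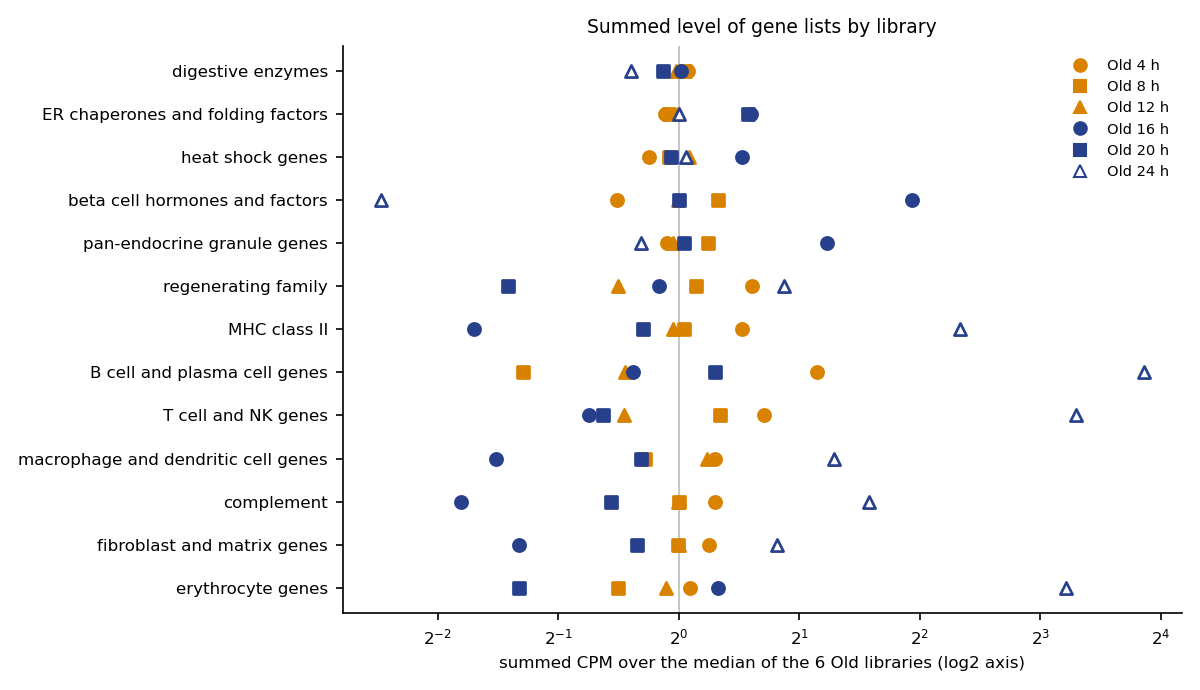
Summed CPM of 13 gene lists in each Old library, divided by the median of the 6 libraries, on a log2 axis; light libraries are orange, dark libraries blue, and Old 24 h is the open triangle. Old 24 h is far to the right for B cell, T cell, MHC class II, complement and erythrocyte lists and to the left for beta cell and digestive lists, and Old 16 h is the highest for the beta cell and heat shock lists.

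No digestive enzyme gene passed. Of 24 tested, 0 had an unadjusted p under 0.05, 17 had a positive log2 fold change, and the median was 0.13, or -0.03 without Old 24 h. Cela2a, an elastase gene, had the smallest p of the list, with 48792, 41382 and 45857 CPM in light and 35362, 37942 and 27189 CPM in dark (0.40 ± 0.21). Pnlip, pancreatic lipase, had 61953, 63998 and 51862 CPM in light and 58337, 51228 and 37700 CPM in dark (0.24 ± 0.23). Old 24 h was the lowest library for both. Ribosomal protein genes had a median log2 fold change of 0.03 over 73 tested members.

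The light against dark difference in Old was set against that in Young by an interaction test over 11 libraries. None of 7206 genes (0%) passed, 225 (3.12%) had an unadjusted p under 0.05, and the smallest adjusted p was 0.999. DESeq2 and limma-voom also called 0. On simulated counts like the 11 libraries, the interaction test called 5% of genes changed by 1 on the log2 scale and 49% of those changed by 2. The lack of calls therefore does not show that the ages are alike. In the 5 Young libraries alone, 8 and 12 h against 16, 20 and 24 h, 3 of 6108 genes (0.0491%) passed. The Old light group also holds 4 h, so values set side by side for both ages cover unlike times. Of the 43 genes called in Old without Old 24 h, 41 were tested in Young. In the fit without Old 24 h, 34 of the 41 (82.9%) had the same direction as in Young. Over the 5620 genes tested in both ages the share was 58.1%, taken from the Old fit that includes Old 24 h. The share over all genes without Old 24 h was not computed, so these shares cannot be compared directly. Of the 41, 14 had the same direction and an unadjusted p under 0.05 in Young. Over all genes tested in Young, 4.78% had an unadjusted p under 0.05 in either direction, so that share is not a matched background.

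The ER chaperones with the smallest p had the same direction in both ages. In Young the log2 fold change was -0.69 for Hsp90b1, -0.52 for Hspa5, -0.59 for Calr, -0.60 for Pdia4 and -0.64 for Hyou1. Mt1 was 1.79 and Mt2 0.29 in Young. The errors of these Young values are not given here, and the Young light group lacks 4 h. Among the Old light libraries, 4 h was the lowest for Hspa5 and Hyou1 and the highest for Mt1 and Mt2. Among the genes with the smallest interaction p, Hsph1 was -1.57 in Old and 0.63 in Young, a difference of -2.19 ± 0.65, and Xpo1 was -1.46 in Old and 0.24 in Young, a difference of -1.69 ± 0.53. Enah (an actin regulator) was -0.58 in Old and 0.78 in Young, and Exosc10 (an exosome nuclease) was -0.60 in Old and 1.63 in Young. Casz1 (a zinc finger transcription factor) was too low for the Old test and differed by 2.35 ± 0.72. Each of these had an adjusted p of 0.999. Arntl was -1.37 in Old and -7.73 in Young, a difference of 6.47 ± 2.80 that depends on counts near 0 and did not pass. The Old light group also holds a 4 h library, where Arntl was high, and the Young light group has none. The values of Arntl, like the others given for both ages, therefore cover unlike times.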

How the data were processed

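Polyadenylated RNA of pancreas was sequenced as read pairs, with RNA integrity above 8, per the labels' protocols. The deposited values are raw counts for each gene symbol, made by the authors with STAR and HTSeq on GRCm38 (mm10), per the submitters' processing notes; the workbook's name refers to featureCounts, so the counter is in doubt. Not given in the sources used here: annotation, strand and the handling of multi-mapped reads. Genes with close relatives, antisense partners or a small RNA inside them are therefore uncertain. Of 40840 symbols, 39350 matched RefSeq (96.4%).

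Groups came from the labels. edgeR 4.0.16 in R 4.3.3 kept genes by filterByExpr, scaled by TMM and tested Old light over Old dark (quasi-likelihood, Benjamini-Hochberg over all genes tested, threshold 0.05). Overlap was judged on TMM-scaled CPM. The interaction used 11 libraries. At 1168694 to 1404038 counts a library, 3 counts, the floor for detection, were 2.14 to 2.57 CPM. Chi-square per gene was 3.53 for the closest pair of Old libraries, so none is a copy. The fits were tested on simulated counts. DESeq2 1.42.0, limma 3.58.1, other scalings and filters and leaving out libraries were alternatives. Figures used matplotlib 3.10.9.

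Members, named-gene rule and 55 lists were chosen with earlier results of these data known. The rule took 12 genes a direction with the smallest p, a mean of at least 5 CPM and no overlap between phases, tested clock genes, up to 5 members of each list described, 6 genes of the interaction and up to 8 genes whose call turned on Old 24 h; predicted genes were passed over, and some genes the rule took are not reported here. Genes named beyond it, among them Hyou1, Dnajc3, Canx, Pdia6, Atf6, Pnlip and others called without Old 24 h, were chosen after their values were seen. The choice to give each result without Old 24 h followed earlier results.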

Additional observations from a re-analysis of the deposited data

Results flagged for a closer look

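Summed levels of 55 gene lists were examined in the 6 Old libraries, and a library whose gap to the next was wide for its group is given here. Chance gives about 1 in 20 such groups. Old 16 h stood apart for heat shock genes at 1300 CPM (next, Old 12 h, 960 CPM), for beta cell genes at 619.5 CPM (next, Old 8 h, 202 CPM) and for pan-endocrine granule genes at 247.1 CPM (next, Old 8 h, 125 CPM). In Old 24 h the same held for MHC class II genes at 410.7 CPM and MHC class I genes at 371.4 CPM, where Old 4 h was next at 118 and 235 CPM. It also stood apart for B cell and plasma cell genes at 612.6 CPM, T cell and NK genes at 72.73 CPM and complement at 1025 CPM, where Old 4 h was next at 93.3, 12.1 and 422 CPM. For erythrocyte genes Old 24 h had 92.41 CPM, and Old 16 h was next at 12.5 CPM.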

How the results depend on the processing

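Within Old, no paired analysis was possible because the labels pair no light library with a dark one. Genes called between phases in Old numbered 0 in the fit reported, 57 with no filter on low counts, 7 by DESeq2, 42 without the 12 h and 24 h libraries, 1 with the spread from 11 libraries, and 0 to 43 on leaving out 1 library. Without Old 24 h, 43 were called, 77 with no filter, 19 by DESeq2 (18 shared), 20 with the spread from 10 libraries (all 20 shared), and 31 to 80 on leaving out 1 more; the alternatives that start from the fit without Old 24 h were chosen after seeing the data. The interaction gave 0 calls, 3 with no filter, and 0 on leaving out any library. With collection time, which both ages share, as a block over the 10 libraries after 4 h, it also gave 0 calls (197 of 7052 genes at an unadjusted p under 0.05), a fit added after seeing the data. Of 1152 values followed for 72 genes, 1004 kept direction and side of the threshold, 100 newly passed and 48 turned direction; as no gene passed with all 6 libraries, none could stop passing. By limma-voom the log2 fold change turned for Per2 (-0.018), Bhlhe40 (-0.24), Ins1 (0.064), Ins2 (0.20), Gcg (0.055), H2-Ab1 (0.59), Cd74 (0.10) and C3 (0.42). Without 12 h and 24 h it turned for Per2 (-0.67), Cry2 (-0.42), Rora (0.12), Bhlhe40 (-0.23), Fkbp5 (-0.30), Ighm (0.28), Igkc (0.95), H2-Ab1 (1.83), Cd74 (1.28) and C3 (1.31). Leaving out 1 library gave ranges that cross 0 for Per2 (-0.25 to 0.83), Cry2 (-0.20 to 0.41), Rora (-0.29 to 0.14), Bhlhe40 (-0.27 to 0.65), Ins1 (-1.25 to 0.83), Ins2 (-1.44 to 0.80), Iapp (-1.64 to 0.19), Gcg (-0.77 to 0.73), Reg3a (-0.18 to 2.53), Reg3d (-0.25 to 1.03), C4b (-0.35 to 2.64), C3 (-0.84 to 1.23), Fn1 (-0.016 to 1.41), Apoe (-0.042 to 1.15), Ighm (-3.26 to 0.048), Igkc (-3.04 to 0.72), H2-Ab1 (-1.22 to 1.75) and Cd74 (-1.31 to 1.25). Within these ranges the direction also turned without Old 4 h for Reg3a (-0.12) and Reg3d (-0.22), without Old 8 h for C4b (-0.15), without Old 12 h for Cry2 (-0.079), Rora (0.034) and Bhlhe40 (-0.055), without Old 16 h for Reg3d (-0.13), without Old 20 h for C4b (-0.31) and without Old 24 h for Per2 (-0.11), Rora (0.052) and Bhlhe40 (-0.013). The cause was not tested. On simulated counts like the 6 Old libraries, 30% of genes changed by 1 on the log2 scale and 85% of those changed by 2 were called, so differences of 1 or less may be missed at this depth and number. For the interaction over 11 libraries it was 5% and 49%, and 3% and 42% with collection time as a block, so differences of 2 may be missed there.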

Other observations

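Small nucleolar RNAs, which guide chemical modification of ribosomal RNA, were mostly at a lower level in light. Of 92 tested, 84 had a negative log2 fold change and 30 had an unadjusted p under 0.05, all lower in light, where 4.64% of all genes were, with a median of -0.48. That count was 15 of 95 without Old 24 h (68 negative, 1 higher), 14 of 96 without Old 4 h and 54 of 95 without Old 16 h. They summed to 4736, 6080 and 5749 CPM in light (4, 8, 12 h) and to 4702, 7140 and 10880 CPM in dark (16, 20, 24 h), so Old 24 h was the highest library and Old 16 h the lowest. Without Old 24 h the median was -0.22, and without Old 16 h 7 of 95 were called. All 11 tested ribosomal RNA genes had a negative log2 fold change, with a median of -0.54. Counts on noncoding or unmatched symbols took 24%, 26.2% and 27.9% of the light libraries and 27.4%, 32.1% and 37.3% of the dark libraries, and their part in these values was not tested.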
